A study of Mus musculus with 12 samples.

Results

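The genes described are 9 enzymes and regulatory subunits that make glucose or store it in the liver: Pck1, G6pc, Fbp1 and Pcx of gluconeogenesis, Pklr of glycolysis, and Gys2, Pygl, Ppp1r3b and Ppp1r3c of glycogen metabolism. They were taken by symbol, from the match of the deposited transcript IDs to GENCODE M21, and all 9 were found among the 13267 genes of the table. The 6 treated livers came from C57BL/6 mice made obese and steatotic by a high-fat diet and then given 4-hydroxyphenylacetic acid (4-HPAA), a phenolic acid that gut bacteria make from dietary polyphenols, under the skin for 6 weeks. The 6 control livers came from mice of the same strain, diet and liver state that received the scaffold alone for the same 6 weeks, so every mouse had been on the high-fat diet and no lean liver was used here. The labels used here give no dose, sex, age or feeding state. The study's design gives 6 per group without saying that each sample was a separate animal, so each p-value reflects sample-to-sample spread, which may be technical.

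The liver releases glucose during fasting by breaking down glycogen and by building new glucose from lactate, glycerol and amino acids. Glucagon and glucocorticoids raise transcription of the gluconeogenic enzymes, and insulin lowers it. After a meal the same cells run glycolysis and refill their glycogen, with glycogen synthase and glycogen phosphorylase working against each other and protein phosphatase 1 switching both through subunits that hold it on the glycogen particle.

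Values are normalised read counts, that is, the authors' counts multiplied by 1 factor per library and rounded. Library totals of these values ran from 22869813 to 25255447. Estimated reads ran from 22389551 to 26924668, in a different order, as control replicate 5 had the lowest total and the most reads. On the first principal component, with 31.5% of the variance, 4-HPAA replicates 1, 2 and 5 lay apart at 37.8, 31.1 and 28.6, and the other 9 livers between −31.5 and 12.2. On the second, with 20.6%, 4-HPAA replicate 3 lay at 56.4 and the other 11 livers between −17.0 and 7.52. The livers had hepatocyte markers at summed values of 1861657 to 2486657 with 4-HPAA and 2250406 to 2734351 in controls, and 0 of 4 skeletal muscle markers were in the table. By mean log2 value 5 of the 8 hepatocyte markers were higher and 3 lower with 4-HPAA, so most went against the sums. Alb, one of these markers, held 4.98% to 7.58% of the library total with 4-HPAA and 7.59% to 8.72% in controls. For 5 of the 9 genes (Pck1, G6pc, Pklr, Gys2 and Pygl) another form of the enzyme was in the table, and the liver form was the higher per kilobase in every library. Per kilobase of merged exons, Pck1, the cytosolic PEP carboxykinase, stood at 1075.2 to 1847 times the mitochondrial form Pck2 in 4-HPAA livers and at 768.8 to 2102.2 times in control livers. The liver glycogen synthase Gys2 stood at 113 to 281 times the muscle form Gys1 with 4-HPAA and at 156 to 289.6 times in controls.

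None of the 9 genes passed the test between the groups. Their confidence intervals, which were not adjusted for the number of genes tested, give a range for each difference. They do not give the size of difference that the adjusted test could have missed. With limma over 12720 genes, 0 of the 9 had a Benjamini-Hochberg adjusted p under 0.05, against 0% of all genes tested, the adjusted p of the 9 running from 0.255 to 0.990. At an unadjusted p under 0.05 there was 1 of 9 (Pygl, higher in 4-HPAA), against 14.8% of all genes tested (7.26% higher and 7.56% lower), so that share is near the background. In 0 of the 9 did the groups fail to overlap, against 0.66% of all genes. Log2 differences (4-HPAA minus control, of log2(value + 1)) were positive for 4 genes and negative for 5, with a median of −0.0063 beside −0.00092 over all genes. Every one of the 9 intervals lay inside a 2.05-fold change in either direction, and that of G6pc was the widest.

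**Figure D1:**
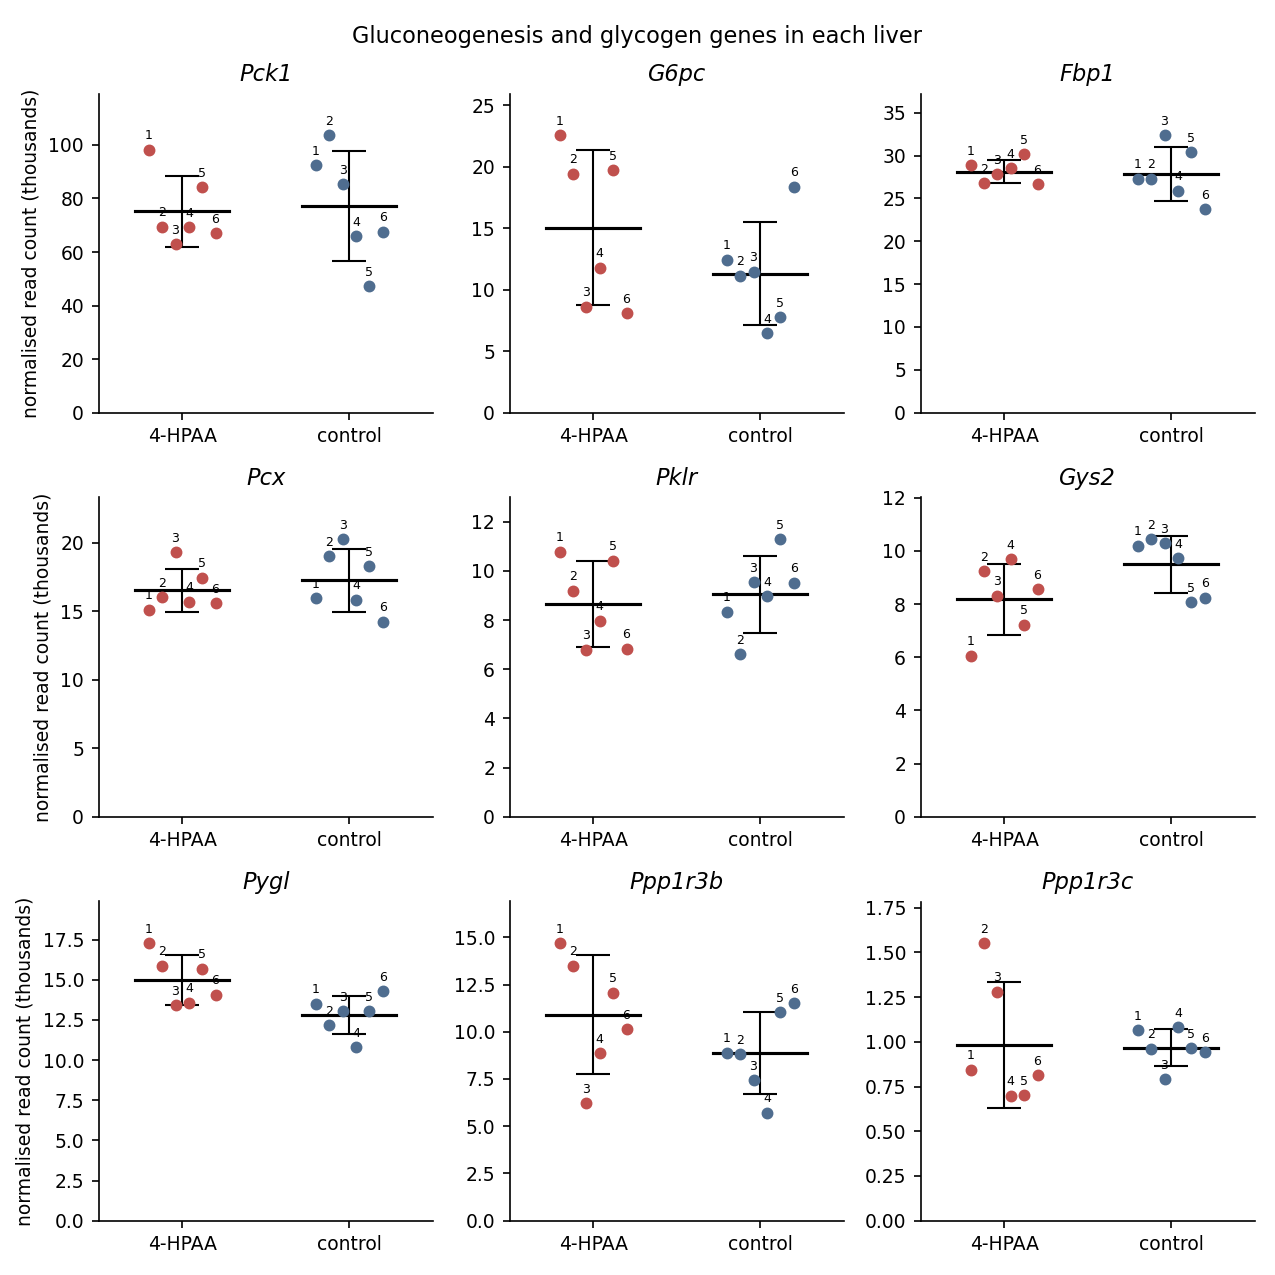
Normalised read counts (axes from 0, in units of 1000) of the 9 genes in each liver, 4-HPAA on the left and control on the right, numbered by replicate, with bars at the mean and SD (n = 6 each). The groups overlap in every panel; G6pc and Ppp1r3b spread widely in both groups, while Fbp1 keeps to 26664 to 30143 with 4-HPAA and 23728 to 32390 in controls.

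The promoters of Pck1 and G6pc are shown because these enzymes, at the entry and the exit of gluconeogenesis, are the textbook targets of glucagon and insulin, and their values here spread differently. The sequences are RefSeq's, on build GRCm38.p6 and the plus strand, which is the coding strand of both genes. Each runs from 250 bases before the RefSeq start site up to the first base that GENCODE M21 gives to an exon, and capitals mark a motif match. The Pck1 stretch is chr2:173152823-173153047 and the G6pc stretch is chr11:101367466-101367560.

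Pck1: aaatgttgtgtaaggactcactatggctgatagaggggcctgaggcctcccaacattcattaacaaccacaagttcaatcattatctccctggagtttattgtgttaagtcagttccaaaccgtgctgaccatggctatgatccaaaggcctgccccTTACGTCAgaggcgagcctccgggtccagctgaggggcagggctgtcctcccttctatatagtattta

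G6pc: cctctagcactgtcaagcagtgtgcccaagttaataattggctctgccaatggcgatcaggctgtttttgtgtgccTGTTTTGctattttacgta

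In the Pck1 stretch the capitals mark a match to the cAMP response element core TGACGTNA, read on the minus strand, at −93 to −86 from the start site. In the G6pc stretch they mark a match to the insulin response motif CAAAACA on the minus strand at −174 to −168. Searched on both strands, these letters occur in 2.93% and 6.29% of 32817 RefSeq windows of 300 bases. The forkhead motif GTAAACA (3.65% of windows), the C/EBP motif TTGCGNAA (0.798%) and the glucocorticoid receptor pair of half-sites (0.475%) had no match in the windows of these 9 genes. The E-box CACGTG, present in 7.15% of windows, matched in the windows of Pcx and Ppp1r3c. Windows were found for 7 of the 9 genes, all but Gys2 and Ppp1r3b, and none of the matches overlapped another.

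Pck1, which turns oxaloacetate into phosphoenolpyruvate and commits carbon to glucose, is on chromosome 2 (GRCm38, 173153048 to 173159273). In 4-HPAA livers its lowest, median and highest values were 62817, 69388.5 and 98174, and in control livers 47278, 76456.5 and 103657. The 4-HPAA livers all lay within the control range. The means were 75170 ± 13382 with 4-HPAA and 77024 ± 20549 in controls (SD, n = 6 each). The log2 difference was −0.01 ± 0.17 (SE; 95% interval −0.38 to 0.36; limma, adjusted p = 0.990). The sign of this small difference turned in 7 of the 12 fits that left out 1 library, over a range of −0.14 to 0.09. The highest value was 1.56 times the lowest with 4-HPAA and 2.19 times in controls, a difference in spread that was not tested. Summed values of 8 Kupffer cell and macrophage markers in the 4-HPAA livers numbered 1 to 6 were 2592, 2294, 2906, 1737, 3290 and 2052, where Pck1 was 98174, 69426, 62817, 69351, 84182 and 67071. Replicates 1 and 5, the highest in Pck1, had sums above the group's median of 2443, but so did replicate 3, the lowest in Pck1. In the controls numbered 1 to 6 they were 1519, 1796, 1385, 3609, 3452 and 5917, where Pck1 was 92346, 103657, 85375, 65947, 47278 and 67538, so there the 3 livers highest in Pck1 had the 3 lowest sums. The order thus was not the same in both groups, and in the 4-HPAA livers it was not uniform. The part of these cells in Pck1 was not tested.

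G6pc, the catalytic subunit that frees glucose from glucose 6-phosphate in the last step of both pathways, is on chromosome 11 (101367561 to 101377903). Its lowest, median and highest values were 8097, 15610.5 and 22581 in 4-HPAA livers and 6472, 11321.5 and 18396 in control livers. The 4-HPAA livers were unevenly spread: replicates 1, 2 and 5 had 22581, 19428 and 19713, and replicates 3, 4 and 6 had 8607, 11793 and 8097. Among controls, replicate 6 was highest at 18396 and replicate 4 lowest at 6472. The means of 15036 ± 6294 with 4-HPAA and 11292 ± 4181 in controls (SD, n = 6 each) gave a log2 difference of 0.38 ± 0.30 (SE; 95% interval −0.28 to 1.03; limma, adjusted p = 0.598). Its spread within groups, an SD of 0.59 on the log2 scale, was above that of 92.7% of all genes tested. The difference was 0.52 without 4-HPAA replicate 3, and 0.23 without control replicate 4 or 0.24 without 4-HPAA replicate 1. Without 4-HPAA replicate 2 or 5, the others high on the first principal component, it was 0.28 in both fits. The highest of these values came with low depth. Replicates 1, 2 and 5 had the fewest estimated reads of the 4-HPAA libraries, 22389551, 23356898 and 23766597. Control replicate 6 had the fewest of the controls, 23954096. The lower values did not follow depth throughout. 4-HPAA replicate 6, lowest in G6pc, had 24561364 reads, fewer than replicates 3 and 4 at 25919336 and 25230976. Control replicate 4, lowest of the controls, had 25841108, fewer than control replicate 5 at 26924668. The part of depth in G6pc was not tested.

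Fbp1 and Pcx, the other enzymes of the route, held steady levels. Fbp1 (chromosome 13, 62864753 to 62888282) removes a phosphate from fructose 1,6-bisphosphate, and its lowest, median and highest values were 26664, 28160.5 and 30143 in 4-HPAA livers and 23728, 27298.5 and 32390 in control livers. The 4-HPAA livers again lay inside the control range. Its log2 difference was 0.02 ± 0.08 (SE; 95% interval −0.15 to 0.19; limma, adjusted p = 0.930), with a spread within groups above that of only 12.4% of genes. The sign turned to −0.01 with scaling to the library total and to −0.09 with quantile normalisation. Pcx (chromosome 19, 4510472 to 4621752), the mitochondrial enzyme that makes oxaloacetate from pyruvate, had 15129, 15859 and 19343 with 4-HPAA and 14231, 17132 and 20280 in controls (lowest, median and highest). Its difference was −0.06 ± 0.10 (SE; 95% interval −0.26 to 0.15; limma, adjusted p = 0.829).

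Pklr (chromosome 3, 89136142 to 89146784) is the liver pyruvate kinase that ends glycolysis and so runs against gluconeogenesis. It had 6787, 8581.5 and 10778 as its lowest, median and highest values in 4-HPAA livers and 6600, 9245 and 11294 in control livers. Its log2 difference was −0.07 ± 0.14 (SE; 95% interval −0.38 to 0.24; limma, adjusted p = 0.866), and with array weights 0.08. Of its 3236 merged exon bases, 711 are shared with Hcn3 on the opposite strand, which had values of 531 to 1886 with 4-HPAA and 542 to 1807 in controls. No source used here says whether reads were counted by strand. The log2 ratio of Pck1 to Pklr within a library, which does not depend on the scaling, averaged 3.12 ± 0.14 with 4-HPAA and 3.06 ± 0.65 in controls (SD, n = 6 each). It ran from 2.92 to 3.29 in 4-HPAA livers and from 2.07 to 3.97 in control livers, so the controls extended beyond the 4-HPAA livers at both ends.

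Pygl and Gys2, the enzymes that break down and build glycogen, differed in opposite directions, neither past the test. Pygl, the liver glycogen phosphorylase (chromosome 12, 70190811 to 70231488), had 13415, 14888.5 and 17283 as its lowest, median and highest values in 4-HPAA livers and 10804, 13034 and 14274 in control livers. All 6 4-HPAA livers lay above the control mean, 3 of them above the highest control, and 4 controls lay below every 4-HPAA liver. The means were 14987 ± 1543 with 4-HPAA and 12804 ± 1198 in controls (SD, n = 6 each). The log2 difference was 0.23 ± 0.09 (SE; 95% interval 0.04 to 0.41; limma, unadjusted p = 0.0206, adjusted p = 0.255), a 1.17-fold level. An exact permutation test gave p = 0.0216 (two-sided, adjusted p = 0.294 over all genes), where 14.3% of genes had an unadjusted p under 0.05.

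Gys2, the liver glycogen synthase (chromosome 6, 142422613 to 142473109), had 6061, 8436.5 and 9681 as its lowest, median and highest values in 4-HPAA livers and 8072, 9963 and 10442 in control livers. None of the 6 4-HPAA livers reached the control median, while 4 controls lay above every 4-HPAA liver. Its log2 difference was −0.22 ± 0.12 (SE; 95% interval −0.47 to 0.02; limma, unadjusted p = 0.0711, adjusted p = 0.381), and −0.14 without 4-HPAA replicate 1. The log2 ratio of Gys2 to Pygl averaged −0.89 ± 0.37 with 4-HPAA and −0.43 ± 0.26 in controls (SD, n = 6 each), given as a description with no test. It was lowest in 4-HPAA replicates 1 and 5, at −1.51 and −1.12, and the other 4-HPAA livers, at −0.78 to −0.49, lay within the control range of −0.79 to −0.15.

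Ppp1r3b and Ppp1r3c are subunits that bring protein phosphatase 1 to glycogen, where it activates the synthase and inactivates the phosphorylase. Ppp1r3b, the form best known from liver, is on chromosome 8 (35375739 to 35388139) and had 6222, 11097.5 and 14692 as its lowest, median and highest values in 4-HPAA livers and 5723, 8851 and 11509 in control livers. Replicates 1, 2 and 5 of the 4-HPAA livers, at 14692, 13498 and 12057, exceeded every control, and 4-HPAA replicate 3 was lowest of its group. The log2 difference was 0.28 ± 0.21 (SE; 95% interval −0.18 to 0.73; limma, adjusted p = 0.578). It was 0.43 without 4-HPAA replicate 3, and 0.16 without control replicate 4 or 0.18 without 4-HPAA replicate 1. Without 4-HPAA replicate 2 or 5 it was 0.20 and 0.24. Ppp1r3c, on chromosome 19 (36731731 to 36736653), was the least abundant of the 9 per kilobase of merged exons, with a mean of 360 in 4-HPAA livers and 355 in control livers, where Pck1 had 21922 and 22462. These means of Ppp1r3c are higher with 4-HPAA while its log2 difference is negative, so the sign depends on whether values or logs are averaged. Its lowest, median and highest values were 698, 829 and 1552 with 4-HPAA and 790, 963 and 1083 in controls. The 4-HPAA livers fell on both sides of the controls, with 2 above the highest and 2 below the lowest. Its difference was −0.04 ± 0.18 (SE; 95% interval −0.43 to 0.35; limma, adjusted p = 0.938), and its log2 SD was 0.48 with 4-HPAA against 0.16 in controls, a gap that was not tested. Its sign turned to 0.04 without 4-HPAA replicate 4 or 5.

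**Figure D2:**
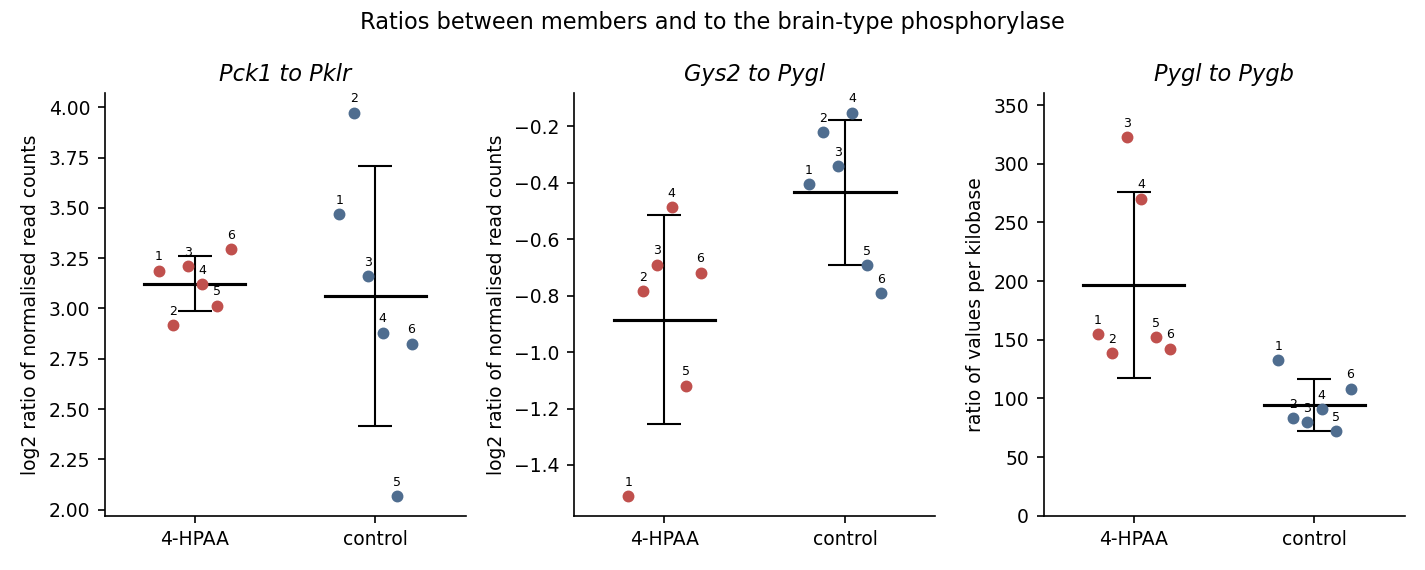
Ratios in each liver, 4-HPAA on the left and control on the right, numbered by replicate, with bars at the mean and SD (n = 6 each): log2 ratios of normalised read counts for Pck1 to Pklr and Gys2 to Pygl, and the ratio of values per kilobase of merged exons for Pygl to Pygb. The Pck1 to Pklr ratio spans 2.92 to 3.29 with 4-HPAA and 2.07 to 3.97 in controls. The Pygl to Pygb ratio spans 139 to 323 with 4-HPAA and 72.1 to 133 in controls. It was chosen after the values had been seen, from genes picked for small p, and was not tested.

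Among the 9 genes, G6pc, Pygl and Ppp1r3b varied together from liver to liver. Each was highest in 4-HPAA replicates 1, 2 and 5 and, among controls, in replicate 6. These livers were also the highest of their groups on the first principal component, at 37.8, 31.1, 28.6 and 2.02. That component is drawn from all genes tested, and no background of correlations over all pairs of genes was computed. Over the 12 libraries the Pearson correlation of log2 values was 0.84 between Pygl and Ppp1r3b, 0.83 between G6pc and Pygl and 0.76 between G6pc and Ppp1r3b. After the group means were removed these were 0.87, 0.87 and 0.73, so the pattern was also present within groups. Gys2 ran against them, at −0.71 with Pygl and −0.60 with Ppp1r3b. Pck1 gave 0.50 with G6pc and 0.23 with Pygl, and these hide values that differ between the groups. Within the 6 4-HPAA livers Pck1 was at 0.80 with G6pc, 0.86 with Pygl, 0.88 with Pklr and −0.87 with Gys2. Within the 6 controls the same pairs were at 0.40, −0.01, −0.86 and 0.86, so the pairs with Pklr and Gys2 had opposite signs. Fbp1 and Pcx were at 0.68 over all libraries, 0.17 within 4-HPAA and 0.88 within controls. The differences between the groups in these values were not tested. All are descriptions over 12 libraries, or 6 within a group, that share scaling and the depth differences given above, and the median over all 36 pairs was 0.01.

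**Figure D3:**
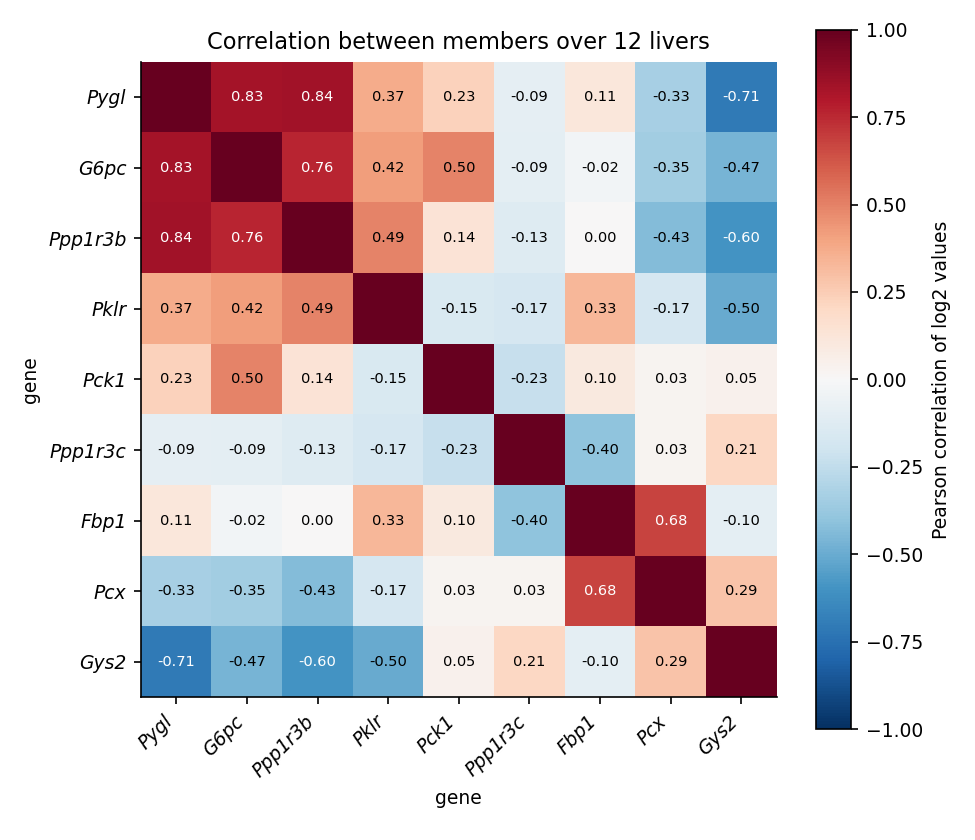
Pearson correlation of log2(value + 1) between each pair of the 9 genes over 12 livers, with red for positive and blue for negative values. Pygl, G6pc and Ppp1r3b form a block at 0.76 to 0.84, and Gys2 is negative with each of them, at −0.71 to −0.47.

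Of the genes tested, with predicted and unnamed genes left out, those whose log2 values followed a member most closely over the 12 libraries were found by Pearson correlation. Il6ra, an interleukin 6 receptor chain, and Klf15, a zinc finger transcription factor, came closest to Pck1, at 0.96 and 0.89, with log2 differences between groups of −0.02 and 0.04. Atg16l1, a protein of autophagosome formation, and Ddx55, an RNA helicase, came closest to G6pc, at 0.96 and 0.95. For Pygl they were Tfdp1 and Zfp280b at 0.95 each, for Ppp1r3b Wdfy2 at 0.92 and Prkar2a, a regulatory subunit of protein kinase A, at 0.91, and for Gys2 Susd1 at 0.94 and Shld1 at 0.93. Pcx was followed by Cyp8b1, the sterol 12-alpha-hydroxylase of bile acid synthesis, at 0.94 and Dele1 at 0.92. Fbp1 was followed by Mas1 and Pm20d1 at 0.88 and 0.87, and Pklr by Pip4k2b and Adgrg1 at 0.91 and 0.89. Ppp1r3c had no partner as close, with Setd6 at 0.82 and Prr3 at 0.79. Such values are the highest for each member among the 12720 genes tested, less the predicted and unnamed ones.

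Genes around these steps were read from 3 lists. Of 45 other enzymes and carriers of gluconeogenesis and glycolysis, 44 were tested, 19 with positive and 25 with negative differences and a median of −0.04, against −0.00092 over all genes. None had an adjusted p under 0.05, and at an unadjusted p under 0.05 there were 2 higher and 6 lower, 18.2% of the list against 14.8% of all genes (limma). Pfkp, the platelet-type phosphofructokinase, had the smallest p. Its lowest, median and highest values were 33, 42.5 and 55 in 4-HPAA livers and 56, 69 and 93 in control livers, and the groups did not overlap, as in 0.66% of all genes. Its log2 difference was −0.69 ± 0.16 (SE; limma, adjusted p = 0.142). Pkm, the pyruvate kinase of most tissues other than liver, had 203, 279.5 and 303 with 4-HPAA and 267, 357 and 425 in controls, a difference of −0.37 ± 0.14 (SE; limma, adjusted p = 0.238). Mpc1, a subunit of the carrier that brings pyruvate into mitochondria, differed by −0.23 ± 0.08, and Ldhd, a D-lactate dehydrogenase, by 0.33 ± 0.13 (SE; limma, adjusted p = 0.210 and 0.263). Ldhd shares 2246 of its 5328 merged exon bases with Znrf1 on the opposite strand, and Mpc1 480 of 2082 with a non-coding gene, so their own levels are less certain. Pfkp shares 748 of 13401 such bases with Pitrm1 on the opposite strand, and Pkm 767 of 5001 with an unverified gene model on its own strand.

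Of 34 other enzymes and regulators of glycogen, 29 were tested, 8 positive and 21 negative, with a median of −0.06. None passed, and 1 higher and 3 lower had an unadjusted p under 0.05, 13.8% of the list against 14.8% of all genes (limma). Pygb, the brain-type phosphorylase, had 29, 70.5 and 80 as its lowest, median and highest values in 4-HPAA livers and 71, 97 and 126 in control livers, a log2 difference of −0.76 ± 0.26 (SE; limma, adjusted p = 0.206). Per kilobase of merged exons, Pygl stood at 139 to 323 times Pygb with 4-HPAA and at 72.1 to 133 times in controls, without overlap. This ratio was chosen after the values had been seen and was not tested. It joins the member and the glycogen list gene of smallest p, so its groups lie apart in part by that choice. Groups failed to overlap in 0.66% of single genes, and no such share was computed for ratios. Gbe1, the branching enzyme that adds side chains to glycogen, had 2917, 3895 and 5009 with 4-HPAA and 4297, 5224 and 5589 in controls, a difference of −0.36 ± 0.13 (SE; limma, adjusted p = 0.230). Epm2a, the glycogen phosphatase laforin, differed by −0.36 ± 0.12, and Phkg2, the catalytic subunit of liver phosphorylase kinase, by 0.33 ± 0.12 (SE; limma, adjusted p = 0.214 and 0.242). Phkg2 shares 876 of 4000 merged exon bases with Ccdc189 on the opposite strand.

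Pfkp, Pkm and Pygb are forms used by many cells other than hepatocytes, and most markers of such cells also had negative differences. All 8 markers of stellate cells and fibroblasts had negative differences, with summed values of 4142 to 8029 with 4-HPAA and 6639 to 10314 in controls. Of 6 endothelial markers 5 were negative (sums of 2896 to 4162 with 4-HPAA and 3141 to 3880 in controls), and of 8 Kupffer cell and macrophage markers 6 (1737 to 3290 and, in controls, 1385 to 5917). Of 5 cholangiocyte markers 3 were negative (1064 to 1876 with 4-HPAA and 1037 to 1715 in controls), and only Cfd of 5 adipocyte markers was in the table (20 to 450 with 4-HPAA and 205 to 1133 in controls). Of 6 T and B cell markers 4 were in the table and 3 were tested, 2 of them negative, while their sums went the other way (86 to 200 with 4-HPAA and 53 to 117 in controls). At an unadjusted p under 0.05 there were 5 lower stellate, 1 lower endothelial, 1 lower Kupffer cell, 1 lower adipocyte, 0 cholangiocyte and 1 higher T and B cell markers. Of the 8 hepatocyte markers 1 was lower and 3 were higher at that threshold. Over all genes tested 7.56% were lower and 7.26% higher at it (limma), and 49.8% had positive differences. In 4-HPAA replicate 4, which had the highest stellate sum of its group, 8029, Pygb was 35, Pfkp 45 and Pkm 303. In control replicate 4, with the highest sum of the controls, 10314, they were 83, 93 and 425. Pkm was the highest of its group in both livers, and Pfkp in the control liver. Pygb was low in both, in groups that ran from 29 to 80 with 4-HPAA and from 71 to 126 in controls. The part of these cells in the differences was not tested, and in whole liver fewer cells of a type and less RNA per cell cannot be told apart.

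Of 50 regulators of gluconeogenic genes, 49 were tested, 30 positive and 19 negative, with a median of 0.03. None passed, and 4 higher and 1 lower had an unadjusted p under 0.05, 10.2% of the list against 14.8% of all genes (limma). Akt1, a kinase of the insulin pathway, had 1191, 1485 and 1552 as its lowest, median and highest values in 4-HPAA livers and 964, 1154 and 1251 in control livers, a log2 difference of 0.32 ± 0.09 (SE; limma, adjusted p = 0.161). Mlxipl, which encodes the glucose-responsive transcription factor ChREBP, had 9103, 10654.5 and 12123 with 4-HPAA and 5864, 8129 and 9724 in controls. Its difference was 0.43 ± 0.12 (SE; limma, adjusted p = 0.183), while Pklr, a textbook target of this factor, lay at −0.07. Stat3, the factor that signals for interleukin 6, differed by 0.44 ± 0.14, and Trib1, a pseudokinase that steers other proteins to degradation, by 0.29 ± 0.10 (SE; limma, adjusted p = 0.200 and 0.206). Stat3 had 2004 to 4038 in 4-HPAA livers and 2060 to 2696 in control livers. Trib1 had 1700 to 2289 with 4-HPAA and 1257 to 1830 in controls. Of the merged exon bases, Mlxipl shares 235 of 5538 with an antisense gene and Stat3 72 of 9527 with Stat5a on the opposite strand. Their own levels are slightly less certain for that small part.

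**Figure D4:**
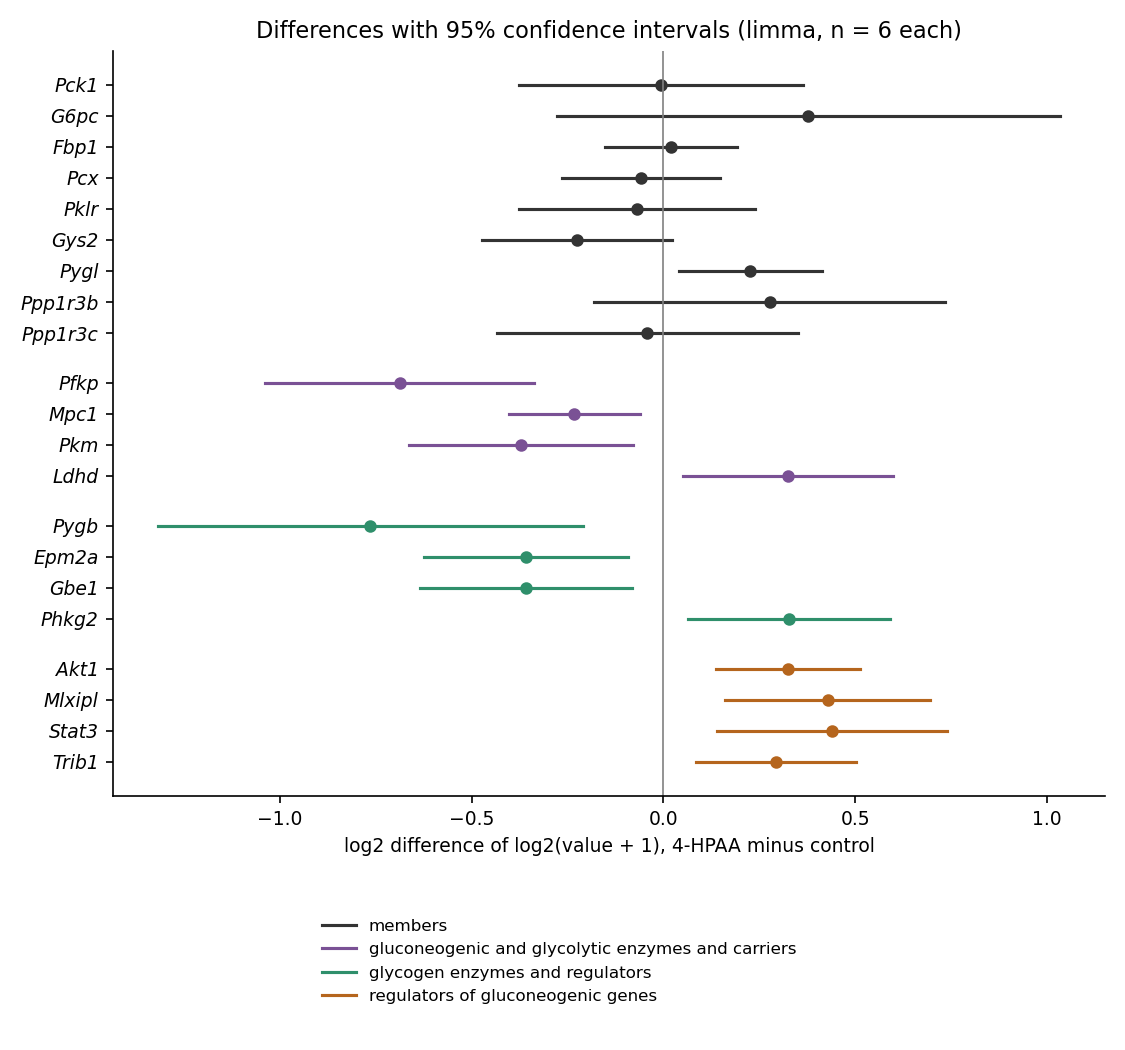
Log2 differences of log2(value + 1), 4-HPAA minus control, with 95% confidence intervals from limma (n = 6 each), for the 9 genes (black) and the 4 genes of smallest p in each of 3 lists (coloured). The intervals of 8 of the 9 genes cross 0, that of Pygl runs from 0.04 to 0.41, and the listed genes were picked for small p, so their intervals lie away from 0 by that choice.

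**Figure D5:**
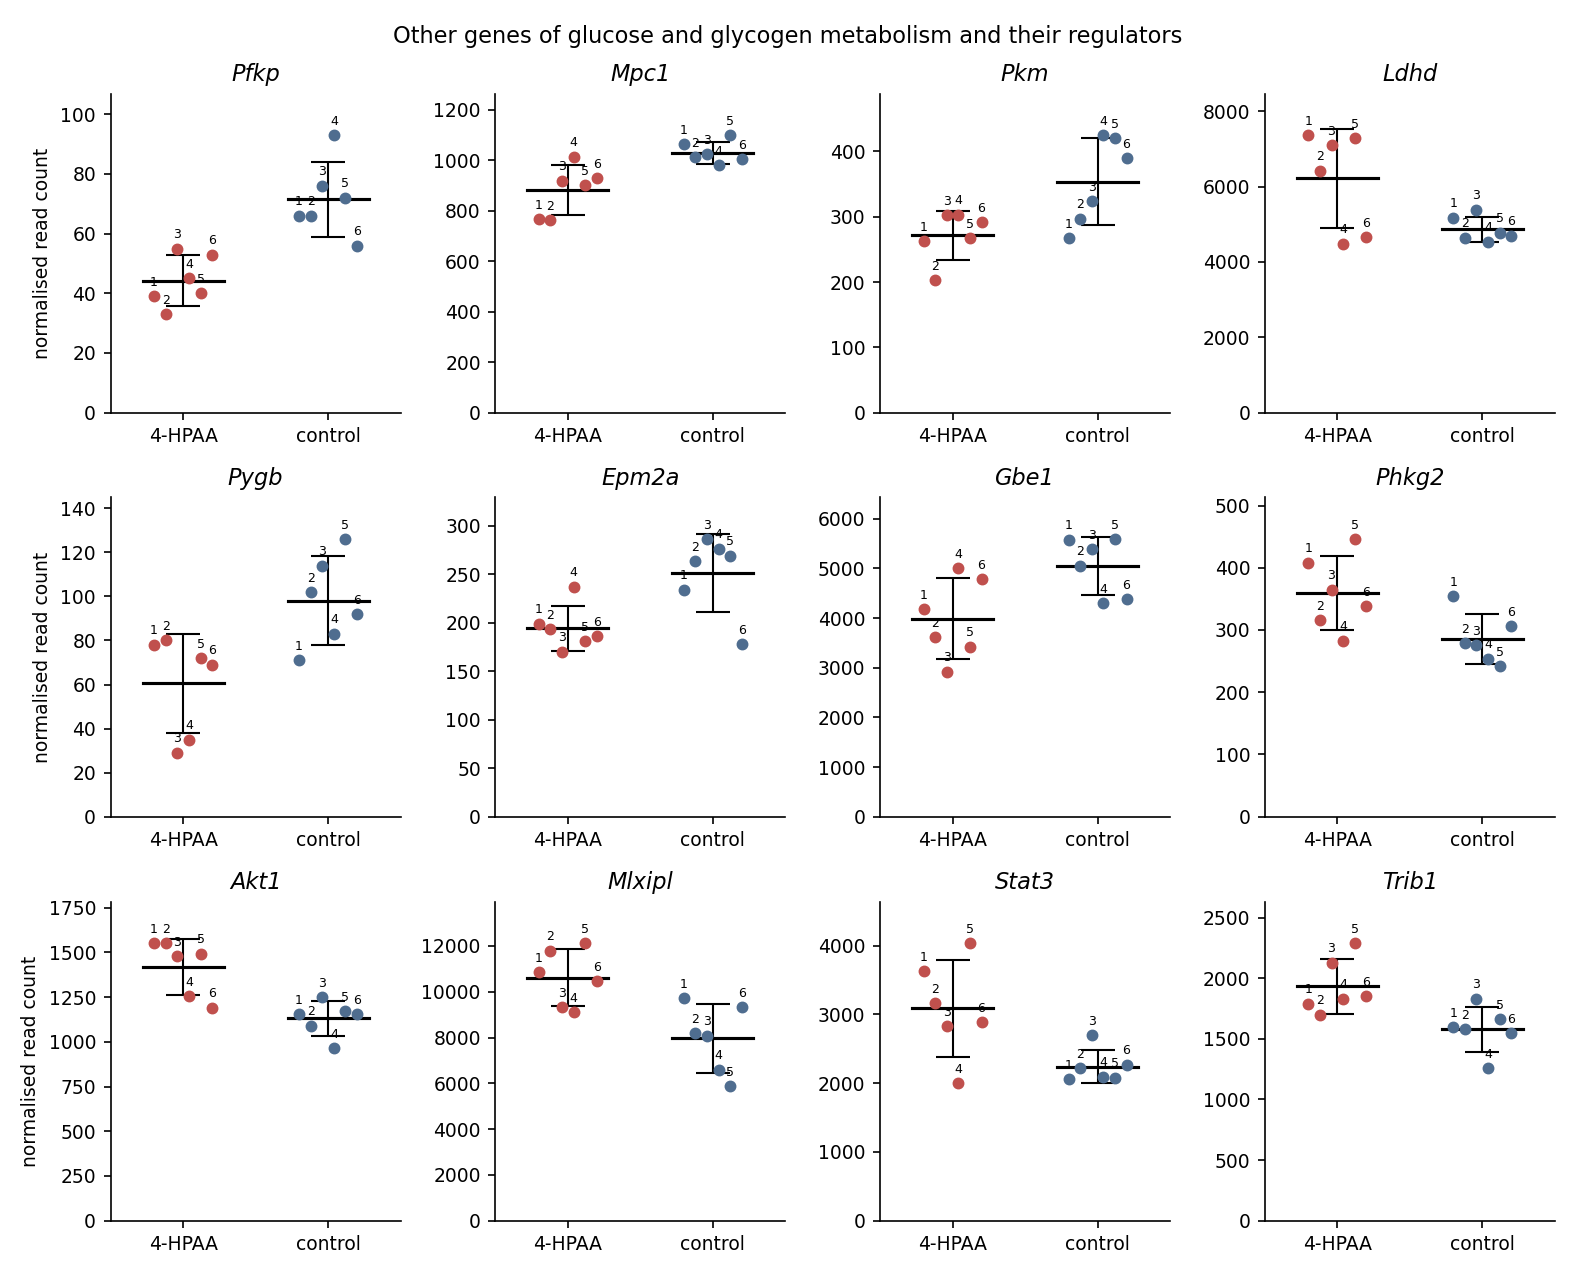
Normalised read counts (axes from 0) of the 12 pathway genes in each liver, 4-HPAA on the left and control on the right, numbered by replicate, with bars at the mean and SD (n = 6 each). The groups overlap in 11 of the 12 panels, and Pfkp lies at 33 to 55 with 4-HPAA and 56 to 93 in controls.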

How the data were processed

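Liver messenger RNA was sequenced in 12 samples, 6 with 4-HPAA and 6 controls, as directional TruSeq libraries on a NovaSeq instrument, per the labels' protocols. The submitters' processing notes list build GRCm38 and the tools STAR, HTSeq, cutadapt, edgeR, FastQC 0.11.9 and DESeq2 1.28.1, without their roles. No source used here gives the annotation release or the use of strand.

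The deposited values are handled as a score: read counts that the authors scaled by 1 factor per library and rounded. The factors, inferred from skipped low whole numbers, were 0.849 to 1.13, and depth is the total divided by this factor. The table has 1 transcript ID per gene; for 4 of the 9 genes it names a short or non-coding transcript, so the values were read as gene values. This could not be checked against the counting step, and all values per kilobase of merged exons depend on it. GENCODE M21 named 13200 of 13267 IDs. Scaled values do not suit a count test. The test was limma 3.58.1 (R 4.3.3) with trended, robust moderation, on log2(value + 1), over 12720 genes at 10 or more in 6 or more libraries, and p-values were adjusted by Benjamini-Hochberg over all of them. Exact permutation tests (two-sided) used every split of 6 against 6, for which the smallest p is 0.00216.

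The members, lists and tests were chosen with earlier results of these data known. Named were all 9 members, the 4 genes of smallest p in each list and the 2 nearest genes of each member, predicted genes left out. One regulator is not reported here and was left out of its list. Within groups, no 2 libraries differed by as little as sampling noise. Alternatives were other scalings, filters, pseudocounts, weights, a replicate block and each library left out. Figures used matplotlib 3.10.9 in Python 3.11.15.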

Additional observations from a re-analysis of the deposited data

Results flagged for a closer look

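Stat3 in control replicate 3, at 2696, lay apart from the other 5 controls, which ran from 2060 to 2271; its gap to the nearest was 0.668 of the group's range, past Dixon's 95% limit for 6 samples. Of 42 groups examined (the 9 genes and 12 pathway genes, in each of the 2 treatments) this was the 1 that stood out, where chance alone sets apart about 1 in 20.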

How the results depend on the processing

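No member passed an adjusted p of 0.05 under any of the alternatives, each given as limma unless named. Differences of G6pc, Pcx, Gys2, Pygl and Ppp1r3b kept their sign in all 24 alternatives each, those of G6pc between 0.23 and 0.59, of Pygl between 0.17 and 0.29, of Ppp1r3b between 0.16 and 0.47 and of Gys2 between −0.28 and −0.14. Pck1 turned positive in 7 fits with a library left out, the range over all 12 being −0.138 to 0.089. Fbp1 turned to −0.0096 with total scaling and with voom and to −0.087 with quantile normalisation, and ran from −0.024 to 0.066 with a library left out. Pklr turned to 0.078 with array weights, and Ppp1r3c ran from −0.188 to 0.043 with a library left out. Members at an unadjusted p under 0.05 numbered 1 as reported, 2 with total scaling and with voom, 0 with quantile normalisation, 3 with array weights, and 0 to 2 with a library left out (0 without 4-HPAA replicate 1 or control replicate 4).

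Over all genes, 0 passed as reported, 139 with array weights, 11 with the replicate block, 5 with control replicate 1 left out, 195 with 4-HPAA replicate 4 left out and 0 with any other library left out. Genes at an unadjusted p under 0.05 numbered 1886 as reported, 3050 with array weights and 1335 to 2502 with a library left out. The list of gluconeogenic and glycolytic enzymes, with 8 such genes, had 5 without trend and robust settings, 3 to 11 with a library left out and 1 past the adjusted threshold with array weights. The list of regulators, with 5, had 9 with array weights, 5 to 8 with a library left out (8 without 4-HPAA replicate 3), and 0 to 1 past the adjusted threshold with a library left out. The cause was not tested. The labels do not say whether libraries of the same number were paired or handled together. Their deviations correlated between −0.18 and 0.28, and 2 of 6 4-HPAA libraries correlated best with the control of their own number. These values do not settle whether there was a pairing. With the replicate block the members' differences were unchanged and no member was called.

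Genes of low value, such as Pfkp and Pygb, carry large counting error. The smallest value in the table is 2, so no gene in it was undetected in any library.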
